A study of Caenorhabditis elegans with 4 samples.

Results

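Regions of Caenorhabditis elegans chromatin enriched for RNA polymerase II (Pol II) that lay within 1000 bp of another such region are described here. They were chosen by position: a region belongs if the gap to the region before or after it on the same chromosome is at most 1000 bp, and consecutive regions of this kind form a group. Of the 1310 regions in the deposited list, 409 met the rule, or 31.2% (95% exact interval 28.7 to 33.8%), and they formed 186 groups. The other 901 regions had no neighbour that near and are called lone regions below.

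The list came from chromatin immunoprecipitation with sequencing (ChIP-seq) on N2 hermaphrodites, the standard wild-type strain, taken as young adults from cultures at 20 °C and fixed with 2% formaldehyde. Immunoprecipitated DNA (ChIP DNA, 2 replicates) was set against input DNA (2 replicates), the same kind of chromatin without selection by antibody. The antibody was 8WG16, a mouse monoclonal directed at the C-terminal repeat of AMA-1, the largest Pol II subunit. Whole animals were used, so tissues are mixed, and a weak signal cannot be told apart from a signal in few cells. The protocol text shared by the labels also mentions embryos and anti-GFP serum, unlike the stage and antibody that the labels of these libraries give. Both replicates were combined into 1 list, so no value below has an error between cultures, and library depths are unknown.

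Pol II is loaded at promoters, moves through the transcribed gene and is released past its 3′ end, so its signal can extend over whole genes as well as mark their ends. Genes of C. elegans lie close together, often with short spacers, and many are arranged in operons, in which 1 promoter drives a string of genes in the same orientation. A young adult hermaphrodite also carries a large germ line and embryos beside its somatic tissues. Positions are given in WormBase build WS180, counted from 1. No gene annotation or genome sequence of that build was used, so the groups are named by position and no region was assigned to a gene.

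Most groups were pairs. There were 156 pairs, or 83.9% of groups, 27 groups of 3, no group of 4, 2 groups of 5 and 1 group of 6. The 30 groups of 3 or more held 97 of the 409 grouped regions. Gaps inside groups are at most 1000 bp by the rule. Their median was 318 bp (quartiles 238 and 490.5 bp), and 99 of the 223 gaps measured 200 to 299 bp. No gap in the list was shorter than 200 bp. Whether regions closer than that were joined into 1 region before listing was not tested, and such a joined region could count as lone.

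The number of gaps fell steeply with size and then levelled off. Bins of 100 bp held 99 gaps at 200 to 299 bp, 45 at 300 to 399 bp, 25 at 400 to 499 bp and 4 at 900 to 999 bp. Beyond the limit there were 57 gaps of 1001 to 2000 bp and 39 of 2001 to 3000 bp, against a median of 30208 bp over all 1304 gaps between neighbours. The bin just past the limit, 1000 to 1099 bp, held 12 gaps, so gap sizes show no break there. Of the gaps just inside it, the 5 largest measured 897, 908, 931, 936 and 977 bp, and the 5 smallest just outside it measured 1007, 1020, 1024, 1030 and 1038 bp. Regions beside the gaps just inside were 490 to 6478 bp long, and those beside the gaps just outside were 211 to 4856 bp long.

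**Figure D1:**
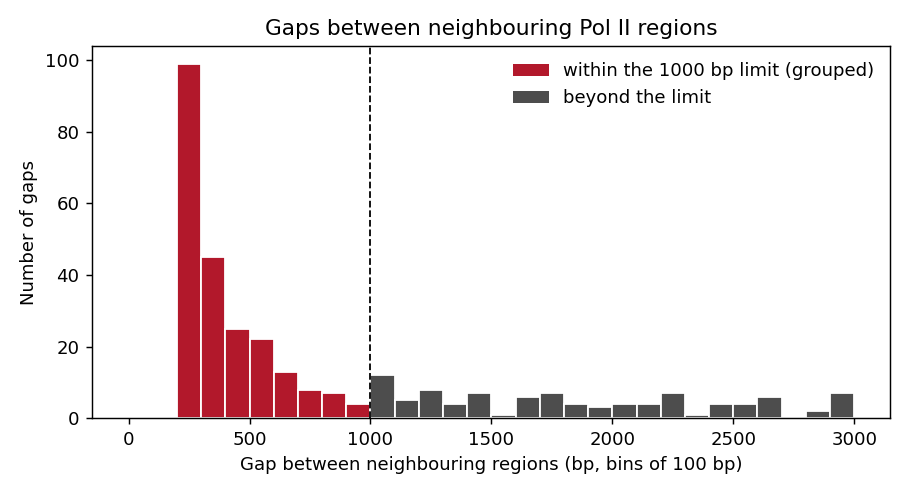
Number of gaps between neighbouring Pol II regions (y axis) by gap size in bins of 100 bp (x axis), up to 3000 bp; red bars are gaps of at most 1000 bp, grey bars larger ones, and the dashed line marks the limit. The tallest bar, at 200 to 299 bp, holds 99 gaps, and no gap is shorter than 200 bp.

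Regions filled most of the span of most groups, which the rule favours by holding every gap inside a group to at most 1000 bp. A group's span, from the first base of its first region to the last base of its last, had a median of 5002 bp (quartiles 2966 and 7497 bp; lowest 721 bp, highest 14333 bp). Regions filled a median of 91.6% of that span and 91.5% of all spans together. The lowest fill, 36.0%, belonged to a pair on chromosome III from 12622687 to 12623808, where a gap of 718 bp took up most of the 1122 bp. In all, grouped regions covered 932 kb within spans that sum to 1019 kb, and lone regions covered 2550 kb.

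Grouped regions were shorter than lone ones, while whole groups, which add up several regions, were longer. The median length was 1585 bp among grouped regions (95% order-statistic interval 1410 to 1810 bp) and 2280 bp among lone regions (2055 to 2474 bp). When groups were formed again from the more significant 655 regions alone, the difference nearly vanished. In that setting 121 regions were grouped, against 203 of the same regions in the list as given, and the rest counted as lone. The median log2 length, grouped minus lone, was then -0.081 (95% order-statistic interval -0.41 to 0.11 with the lone median held fixed). In the whole list it was -0.52 (-0.69 to -0.33). Regions of pairs had a median of 1710 bp and those of larger groups 1094 bp. Regions of at least 10000 bp numbered 1 of 409 grouped regions and 18 of 901 lone regions (2.00%). Taken as single domains, 17 of 186 groups (9.14%) spanned at least 10000 bp. No test was made of these or the following differences, since lengths, q-values and tags come from the same enrichment whose positions chose the members.

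**Figure D2:**
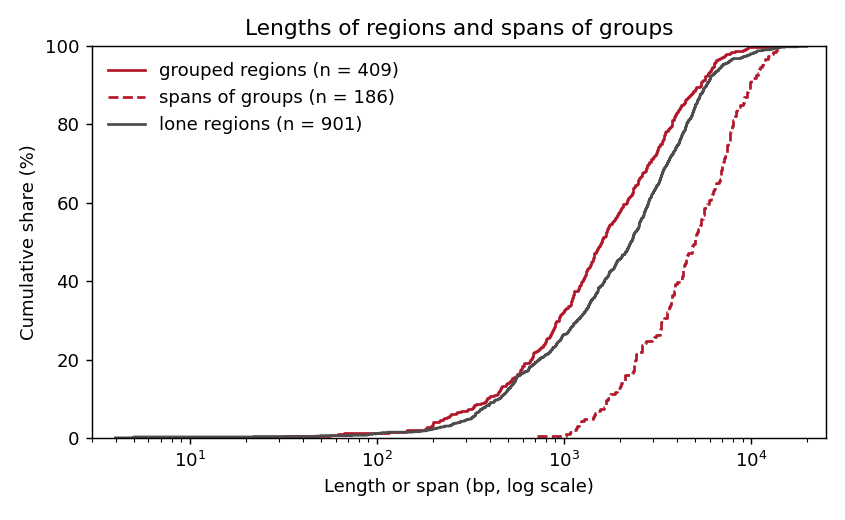
Cumulative share (y axis, %) of lengths in bp on a log scale (x axis) for the 409 grouped regions (solid red), the spans of the 186 groups (dashed red) and the 901 lone regions (grey). The grouped curve lies left of the lone curve, with medians of 1585 and 2280 bp, and the spans lie right of both, with a median of 5002 bp.

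The shorter length of grouped regions was seen on each of the 6 chromosomes, by unequal amounts. On X the median was 1676 bp for 25 grouped regions and 3391 bp for 99 lone ones. On V it was 1756 bp grouped and 2834 bp lone, on II 1971 and 2534 bp, and on III 1728 and 2264 bp, each pair in the same order. On IV the medians were 1603 bp grouped and 1758 bp lone. Chromosome I showed almost no gap, with 1252 bp grouped and 1288 bp lone.

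Over the whole list, grouped and lone regions had similar median significance, but single chromosomes differed in both directions. The q-value of a region is the authors' measure of ChIP over input enrichment after correction for the number of regions tested, and every listed q-value is below 0.01. Its median was 4.83e-09 for grouped regions (quartiles 1.46e-23 and 0.000202) and 3.59e-09 for lone regions (quartiles 1.35e-28 and 0.000258). On the −log10 scale the median was 8.32 grouped (95% order-statistic interval 6.56 to 9.82) and 8.45 lone (7.61 to 9.94), intervals that overlap almost wholly. By chromosome, −log10 of the median q-value was 7.51 grouped and 14.5 lone on V, 8.11 and 13.4 on X, 11.4 and 11.8 on II, 10.1 and 6.95 on III, 7.57 and 7.12 on IV, and 5.98 and 5.54 on I. Without I and IV, the grouped median of −log10 q was 1.66 below the lone median (difference -1.66, 95% order-statistic interval -4.22 to -0.12 with the lone median held fixed). With the list cut by significance into 4 equal parts, 28.7% of regions were grouped in the first, 33.2% in the second, 33.3% in the third and 29.7% in the last. Among the first 100 listed regions the share was lower: 19 were grouped (95% exact interval 11.8 to 28.1%), and they came from 18 groups. The first listed region fits a rank of 30, so a neighbour of an unlisted region ranked above it could count as lone.

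By length the share moved more. With 4 equal parts by length, 36.0% of the shortest regions (up to 893 bp) were grouped, and 37.5% of the next (893 to 2032 bp). Among regions of 2037 to 3796 bp the share was 27.5%, and among those from 3801 bp 23.9% (95% exact interval 19.3 to 28.9%). Very short regions were rare in both sets, with 14 of 409 grouped regions and 21 of 901 lone regions under 200 bp.

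Numbers of tags (sequenced fragments) behind a region were worked back from its q-value, which gave 1 pair of ChIP and scaled control tags for 407 of the 409 grouped regions and 894 of the 901 lone ones. The median number of ChIP tags was 350 in grouped regions (quartiles 178 and 778) and 497 in lone regions (quartiles 210 and 1013). The ratio of ChIP to scaled control tags had a median of 1.88 in grouped regions (95% order-statistic interval 1.79 to 1.96) and 1.80 in lone regions (1.76 to 1.85). Ratios under 1.5 made up 14.7% of grouped regions (60 of 407) and 24.4% of lone regions (218 of 894), whereas ratios over 4 made up 2.21% and 2.24%. The grouped set thus held a smaller share of weakly enriched regions but a like share of strongly enriched ones. These ratios also depend on the factor by which control tags were scaled, which was lower on I and IV than elsewhere. Before scaling, the median ratio was 2.93 in grouped regions (95% order-statistic interval 2.87 to 3.02) and 2.88 in lone regions (2.80 to 2.94). A region with few tags reaches the list only with a higher ratio, and grouped regions were shorter. Within the 4 parts by length, the median ratio was 2.06 grouped and 2.14 lone among the shortest regions, 1.75 and 1.66 in the next part, 1.76 and 1.68 in the third, and 1.87 (95% order-statistic interval 1.76 to 2.03) and 1.75 (1.67 to 1.86) among the longest. The intervals overlap in every part, and the shortest regions go the other way.

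Per kb of region, ChIP tags were close in both sets, with medians of 225 in grouped regions (218 to 235) and 230 in lone ones (223 to 239). Control tags before scaling, a measure of input chromatin, had a median of 77.7 per kb in grouped regions (95% order-statistic interval 75.6 to 80.4) and 82.3 in lone regions (80.7 to 84.1). On each chromosome the grouped median of input tags was below the lone one: 60.9 and 71.7 per kb on X, 67.5 and 84.2 on II, 72.8 and 83.4 on V, 82.8 and 86.6 on III, 75.7 and 76.8 on IV, and 85.6 and 88.6 on I. Intervals of medians and of shares of regions take regions as independent draws, which neighbours are not, and are therefore too narrow. Intervals on tags cover counting error only, since PCR copies are not independent molecules.

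Signal was split unequally inside most pairs. The fuller of 2 regions holds more than the other by definition, so only the size of its share is informative. Larger groups varied: the fullest region held 45.0% of ChIP tags in the group of 6, and 56.9 and 31.5% in the groups of 5. In the 155 pairs with tags for both regions, the fuller one held a median of 72.2% of the pair's ChIP tags (quartiles 63.3 and 81.2%). Its share passed 90% in 8 pairs and stayed under 60% in 29. The longer region of a pair had a median of 2.50 times the length of the shorter, and it was also the more significant one in 136 of 156 pairs (87.2%, 95% exact interval 80.9 to 92.0%). At like ratios a longer region holds more tags and thus reaches a lower q-value, so this order is largely built in. The most significant region of each group had medians of 2792 bp and q = 4.65e-19, and the remaining 223 regions of 1126 bp and q = 3.73e-05. That split is made on significance, so its direction follows from the choice.

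Neither the more significant nor the longer region of a pair showed a clear preference of side along the chromosome. The more significant region of a pair lay on the left, toward lower coordinates, in 82 of 156 pairs (52.6%, 95% exact interval 44.4 to 60.6%). The longer region lay on the left in 76 of 156 (48.7%, 40.6 to 56.8%). In the 27 groups of 3 the most significant region was the left one in 6, the middle one in 8 and the right one in 13. Left and right refer to the coordinate only, because the list gives no strand.

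Enrichment ratios of the 2 regions of a pair differed by a median of 1.18 times, were within 1.25 times of each other in 91 of 155 pairs (58.7%), and were more than 2 times apart in 8. Exact intervals of the 2 ratios did not overlap in 27 pairs (17.4%, 95% exact interval 11.8 to 24.3%). Overlap of intervals in the remaining pairs does not show that their ratios agree, since short regions have wide intervals. Adjacent regions inside all groups differed by a median of 1.21 times, and neighbours more than 20000 bp apart by 1.30 times, so ratios in this list are close to each other even far apart.

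With all chromosomes pooled, correlations of enrichment between neighbours were higher at gaps up to 5000 bp than beyond, with no steady trend inside groups. Across 220 adjacent regions inside groups, Pearson's r between the log2 ratios of the left and right region was 0.47 and Spearman's rho was 0.34. At the shortest gaps, up to 299 bp (98 adjacent regions), r was 0.22 and rho 0.20, and at 300 to 499 bp (70) r was 0.62 and rho 0.49. At gaps of 1001 to 5000 bp (152 adjacent regions) r was 0.39 and rho 0.23, at 5001 to 20000 bp (179) r was 0.00322 and rho 0.052, and above 20000 bp (735) r was 0.0596 and rho 0.043. Without the 2 points farthest from the median, r was 0.39 inside groups and 0.18 at 1001 to 5000 bp. These correlations describe 1 list: adjacent regions share libraries, a chromosome's control factor and often base composition, and a region can enter as left and as right. Within chromosomes rho inside groups was 0.52 on I (73 adjacent regions), 0.37 on IV (47), 0.17 on III (38), 0.13 on II (25), 0.16 on V (24) and 0.19 on X (13). The pooled value inside groups therefore rests largely on I and IV. At 1001 to 5000 bp rho was 0.28 on I, 0.33 on IV, 0.26 on V and 0.44 on X, but -0.10 on II and -0.12 on III. Each of these values rests on 10 to 55 adjacent regions.

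**Figure D3:**
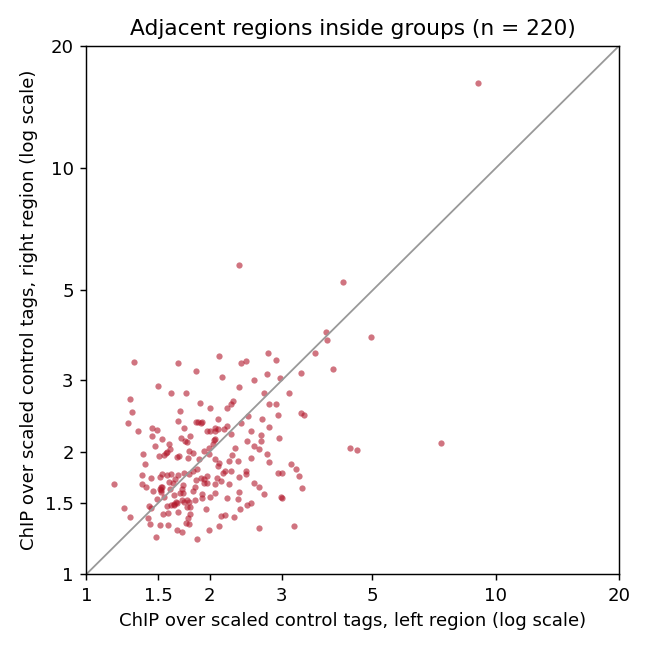
Enrichment (ChIP over scaled control tags) of the right region (y axis) against that of the left region (x axis), both on log scales, for 220 adjacent regions inside groups; the grey line marks equal ratios. Most points lie between ratios of 1.5 and 3 around the line, and the highest point, with 9.04 on the left and 16.25 on the right, is a pair on X.

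The group with the most regions, 6, ran from 2854996 to 2866934 on chromosome I, and its regions covered 85.4% of a span of 11939 bp. In order along the chromosome the regions measured 809, 4046, 1860, 268, 2151 and 1056 bp, with gaps of 423, 610, 222, 264 and 230 bp between them. Their ratios were 2.28, 2.67, 2.21, 2.57, 3.0 and 1.78, and the intervals of the fifth (2.42 to 3.75) and the sixth (1.34 to 2.37) did not overlap. The second held 968 ChIP tags against 363 scaled control tags (ratio 2.67, 95% exact interval 2.33 to 3.07; q = 3.12e-62), 45.0% of the group's 2149 ChIP tags. The fourth, of 268 bp, held 54 against 21 (q = 0.00114), and its interval of 1.43 to 4.91 shows how little such a short region fixes the ratio. Another region, of 367 bp, ended 1020 bp before this group and was just outside it.

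Both groups of 5 also lay on chromosome I. The first ran from 7015583 to 7024721, a span of 9139 bp, with ratios in order of 3.35, 3.13, 2.80, 2.31 and 2.04. The middle region of 4200 bp held 1394 of its 2449 ChIP tags (56.9%). The second ran from 7573444 to 7579071, a span of 5628 bp, with ratios of 1.68, 2.38, 3.31, 1.75 and 2.13, and its fullest region held 31.5% of the tags, the lowest such share of any group with tags for every region. These groups were named after their sizes were seen.

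On the other chromosomes no group exceeded 3 regions, and the longest of those are drawn in the map of groups. On chromosome II, from 9272254 to 9286293, 3 regions of 6333, 3104 and 3724 bp stood 474 and 405 bp apart. Enrichment was uneven there: the left region held 1418 ChIP tags against 1120 scaled control tags (ratio 1.27, 95% exact interval 1.15 to 1.39), the middle one 801 against 340 (2.36, 2.01 to 2.78), and the right one 1949 against 673 (2.90, 2.59 to 3.25; q = 7.63e-141). The left ratio was below the other two by more than counting error. With a span of 14040 bp this was also the second longest group of all.

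On chromosome III, from 3803660 to 3813257, 3 weakly enriched regions had ratios of 1.36, 1.67 and 1.498 with overlapping intervals, and the gap of 977 bp between the last 2 was the largest inside any group. On chromosome IV, from 7906725 to 7915771, a region of 5894 bp (ratio 1.78) lay between regions of 1082 bp (2.16) and 1580 bp (1.38) at gaps of 254 and 237 bp. Chromosome V, from 9515925 to 9522813, showed a strong middle region of 3984 bp (ratio 2.38, 95% exact interval 2.07 to 2.74) between regions of 728 bp (1.85, 1.35 to 2.57) and 1667 bp (1.45, 1.18 to 1.79). The middle interval lies above that of the right region and overlaps that of the left. The group on X, from 17068435 to 17071053, was the smallest of these, with 3 regions in 2619 bp, 352 ChIP tags in all and q-values of 0.000202, 0.00961 and 0.000170.

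**Figure D4:**
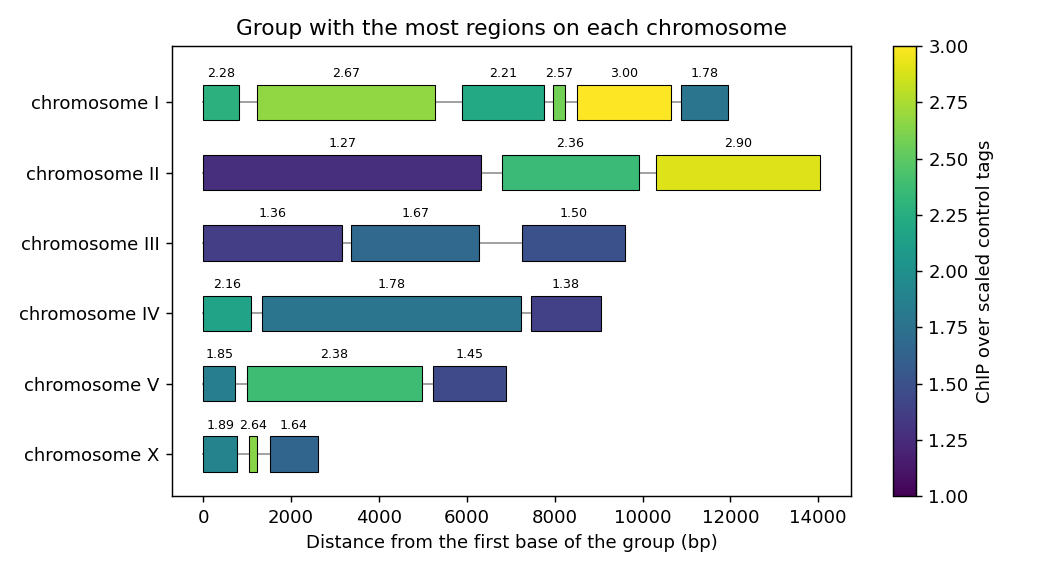
The group with the most regions on each chromosome, drawn to scale by distance in bp from its first base (x axis), 1 row per chromosome; boxes are regions, coloured and labelled by their ratio of ChIP to scaled control tags, and the thin line bridges the gaps. Chromosome I holds 6 regions and the others 3 each; on chromosome II the ratio is 1.27 in the left region and 2.90 in the right one.

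The longest span belonged to a pair on chromosome III from 343751 to 358083, with 14333 bp. Its right region of 12710 bp, the longest of all grouped regions, held 4070 ChIP tags against 2263 scaled control tags (ratio 1.80, 95% exact interval 1.69 to 1.92). Across a gap of 231 bp, its left region of 1392 bp held 418 against 185 (2.26, 1.82 to 2.82). Chromosome II supplied the third longest group, 3 regions from 13278937 to 13292510 with ratios of 1.49, 1.53 and 2.15. The closest pair, 200 bp apart, lay on chromosome III from 7303610 to 7305161 (963 and 389 bp, ratios 2.18 and 1.80). The most widely spaced pair, 936 bp apart, lay on chromosome IV from 7020714 to 7026119 (3871 and 599 bp, ratios 1.68 and 1.96).

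Partners of the strongest grouped regions varied. The most significant of them, on chromosome IV from 16167266 to 16171722 (4457 bp, q = 4.25e-299), is the fifth region of the list, and its tags could not be recovered. Its partner of 1182 bp, 515 bp to the right, held 418 ChIP tags against 117 scaled control tags (ratio 3.57, 95% exact interval 2.82 to 4.57). Weaker partners were seen in 4 other pairs. On chromosome I the region from 8865096 to 8868857 had a ratio of 5.79 (5.08 to 6.61) and its left partner, 382 bp away, one of 2.35 (1.75 to 3.20). On chromosome II the region from 5543358 to 5546120 had 4.58 (3.97 to 5.30) and its partner, 203 bp away, 2.02 (1.64 to 2.50). On X the region from 13347368 to 13352747 had 3.22 (2.91 to 3.58) and its partner of 3605 bp 1.31 (1.14 to 1.52), and on III the region from 9050176 to 9057339 had 2.51 (2.32 to 2.71) and its partner 1.29 (1.10 to 1.52). In these 4 pairs the intervals did not overlap. The regions were picked for low q-values or high ratios, so a weaker partner follows largely from the choice.

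Other strong groups had high ratios throughout. On chromosome I from 7865753 to 7872752, 3 regions had ratios of 4.97 (95% exact interval 4.39 to 5.64), 3.85 (2.78 to 5.44) and 3.95 (3.53 to 4.42), the first and last with intervals that barely met. They held 4170 ChIP tags in all, and this was the only group with 2 regions among the first 100 of the list. On chromosome IV the pair from 2764684 to 2776304 had ratios of 3.62 (2.97 to 4.43) and 3.51 (3.19 to 3.86), and on chromosome V the pair from 7412434 to 7417267 had 4.23 (3.44 to 5.23) and 5.24 (4.46 to 6.18). Within each of these pairs the intervals of the ratios overlapped.

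The highest ratios of any group came with few input tags. On X from 16933809 to 16935491 a pair of 1016 and 324 bp held 217 and 65 ChIP tags against 24 and 4 scaled control tags, or 13 and 2 before scaling. The ratios were 9.04 (95% exact interval 5.18 to 17.3) and 16.25 (4.32 to 137.02). ChIP tags there, 214 and 201 per kb, were near the median of all grouped regions (225), while input tags, 12.8 and 6.17 per kb, were far under their median of 77.7. The high ratio thus goes with scarce input and ordinary ChIP density. Whether the sequence there can be read uniquely was not tested.

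Groups were unevenly spread over chromosomes. Chromosome I had 125 grouped regions of 323, or 38.7% (95% exact interval 33.4 to 44.3%), in 52 groups, 14 of them of 3 or more. The share was 34.1% on III (73 of 214), 31.3% on IV (93 of 297), 26.7% on II (47 of 176), 26.1% on V (46 of 176) and 20.2% on X (25 of 124; 13.5 to 28.3%). The intervals of I and X do not overlap. Regions of a group are grouped together, so exact intervals of shares of regions, here and below, are too narrow. Per Mb there were 3.46 groups on I, 2.54 on III, 2.46 on IV, 1.44 on II, 1.06 on V and 0.681 on X, with the end of the last region taken as the chromosome's length. A chromosome with more regions per Mb brings neighbours closer whatever their arrangement, so these values follow regional density as well as grouping.

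The spread changed with the scaling of the control. Recovered control tags were multiples of 1.36 on I and 1.39 on IV but of 1.74 to 1.83 on the other chromosomes. At equal unscaled control tags, a region thus needed fewer ChIP tags to be listed on I and IV. Whether a common factor suits these libraries better was not tested. With the largest factor, 1.83, on every chromosome, regions that then miss the p-value limit of the list drop out: 289 of 409 grouped regions (70.7%) and 658 of 901 lone regions (73.0%) were kept. On I and IV, 110 of 218 grouped regions (50.5%) and 195 of 402 lone regions (48.5%) were kept, and on the other chromosomes 179 of 191 (93.7%) and 463 of 499 (92.8%). Losses were thus about the same for grouped and lone regions. That they fell mostly on I and IV follows from the setting, which raises the factor most there. All regions were kept in 106 of 186 groups, 40 groups were left with 1 region and 27 with none. With groups formed again from the kept regions, chromosome I had 26.5% grouped regions (95% exact interval 19.6 to 34.3%) and X 20.5% (13.7 to 28.7%). The share was 33.2% on III, 26.7% on II, 22.3% on V and 22.1% on IV, with overlapping intervals throughout. Chromosome I kept 151 of its 323 regions and X 122 of its 124. Fewer regions give fewer near neighbours by construction, so a fall on I is built into the setting. Of the group of 6 on chromosome I, 4 regions were kept, and of its groups of 5, 3 and 2.

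**Figure D5:**
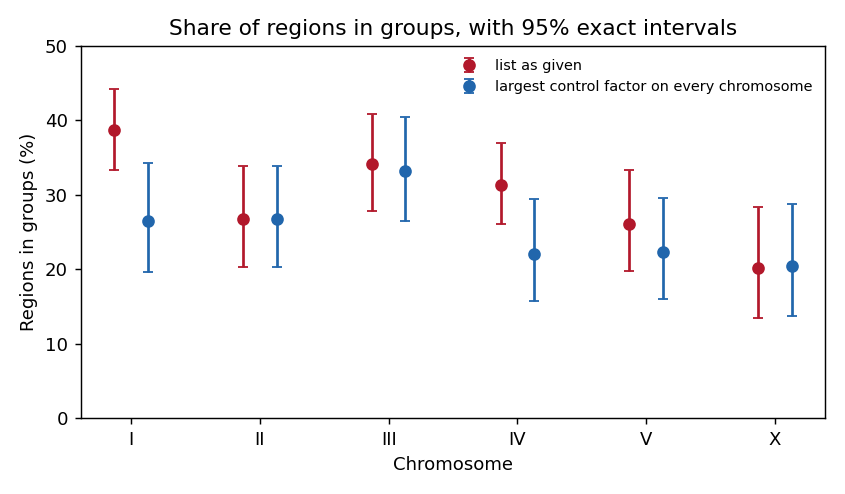
Share of regions that lie in groups (y axis, %) on each chromosome (x axis), with 95% exact binomial intervals, for the list as given (red) and with the largest control factor on every chromosome (blue). Chromosome I stands highest in the list as given, at 38.7%, and falls to 26.5% with the largest factor, as its regions drop from 323 to 151. II, III and X hardly move, and II cannot, since its own factor is the largest.

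Along the autosomes, grouped regions lay more centrally than lone ones. The central 33.3% of an autosome by length held 213 of 384 grouped regions, or 55.5% (95% exact interval 50.3 to 60.5%), and 356 of 802 lone regions, or 44.4% (40.9 to 47.9%). Chromosome I carried much of this: 88 of its 125 grouped regions (70.4%) and 85 of its 198 lone regions (42.9%) were central, and within its central part 50.9% of regions were grouped, against 32.0% in the left part and 17.3% in the right part. Chromosome III had 54.8% central among grouped and 40.4% among lone regions, V had 28 of 46 and 65 of 130, and IV had 43.0 and 42.6%. Chromosome II ran the other way, with 36.2% of 47 grouped and 48.1% of 129 lone regions in its centre. On X, 6 of 25 grouped and 31 of 99 lone regions were central. Where regions are dense, neighbours are closer whatever their arrangement, so position and density cannot be told apart in these shares. With the largest control factor on every chromosome the central shares of autosomal regions were 46.3% grouped (39.6 to 53.2%) and 43.3% lone (39.3 to 47.4%), intervals that overlap.

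In windows of 1 Mb, groups were most frequent on chromosome I from 7 to 8 Mb, with 11 groups that held 33 of its 52 regions (63.5%). The window from 9 to 10 Mb there held 9 groups and the one from 5 to 6 Mb 8 groups. Elsewhere no window held more than 6 groups, the number found on III from 5 to 6 Mb and on IV from 9 to 10 Mb. Of 103 windows, 31 had no group, of which 10 were on X and 8 on V. Further company was commoner for groups: 65 of 186 (34.9%, 95% exact interval 28.1 to 42.3%) had another region within 5000 bp outside the group. The same held for 217 of 901 lone regions (24.1%, 21.3 to 27.0%). Like the counts per Mb, these shares follow regional density as well as grouping.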

How the data were processed

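The deposited list gave each region's chromosome, start, end and a q-value. Regions were found with PeakSeq on WormBase WS180, per the file headers and columns; the sources used here do not name a version, aligner or read filter, or how the replicates were merged. Both q-value columns were equal in 1310 of 1310 regions. Members and descriptions were chosen with earlier results of these data known; groups and regions were named by fixed rules (the group with most regions per chromosome, the 3 longest spans, the extreme gaps of pairs, the lowest q-values and the highest ratios of at least 500 bp).

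The list order was taken as rank order, and each p-value was taken as the upper tail of a binomial at odds of 0.5. A first rank of 30 and 14435 regions tested matched (11 of the last 12 regions), and a single tag pair then fitted 1301 regions (relative tolerance 1e-10). Regions ranked above the first listed are not analysed here. That the larger number is ChIP tags and the other scaled control tags is how PeakSeq works as published; the file itself does not say so. Control tags were fitted as multiples of 1 factor per chromosome (96.0 to 98.3% of them). Any factor fits a share of whole numbers of about 1 over the factor, and this was subtracted when the factor was chosen. The 9 regions without tags were kept in the setting with 1 control factor. Grouping and tag recovery were tested on simulated data. Shares have exact (Clopper-Pearson) intervals and medians order-statistic intervals. Python 3.11.15, NumPy 2.4.6, SciPy 1.17.1 and matplotlib 3.10.9 were used.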

Additional observations from a re-analysis of the deposited data

How the results depend on the processing

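Values were recomputed under 6 settings, each with groups formed again from the regions it kept, which gave 47 alternative values. Of these, 27 stayed within the interval of the reported value (counts within 1.5 times). The share of regions in groups was 24.0% with gaps up to 500 bp, 37.4% with gaps up to 2000 bp, 18.5% in the more significant 655 regions, 25.7% with the largest control factor and 27.7% without chromosomes I and IV. Fewer regions in the list give fewer near neighbours by construction. The number of groups was 58 in the more significant regions, 116 with the largest factor and 91 without I and IV. The median length of grouped regions was 3161, 1937 and 1862 bp in the same settings. The median log2 length of grouped regions was 0.52 below that of lone ones (-0.52) in the list as given, but only -0.081 in the more significant regions; the cause was not tested. The median −log10 q of grouped minus lone regions was -0.13 as given. It reversed to 0.10 with gaps up to 500 bp, to 0.28 among regions of at least 200 bp and to 4.53 in the more significant regions, and was -2.07 with the largest factor, so no direction is given for it over the whole list. The central share of grouped autosomal regions was 46.9% in the more significant regions and 46.3% with the largest factor. Chromosomes I and IV held 53.3% of grouped regions as given, 47.9% in the more significant regions and 30.5% with the largest factor. The median log2 enrichment ratio of grouped minus lone regions was 0.063 as given (95% order-statistic interval -0.010 to 0.12, lone median held fixed). It was 0.043 to 0.087 in the 6 settings, with 0 inside the interval for gaps up to 500 bp, regions of at least 200 bp and the largest factor. By chromosome the median ratio was 1.99 grouped and 1.95 lone on I, 1.86 and 1.73 on II, and 1.79 and 1.70 on III. It was 1.90 and 1.86 on IV, and 1.75 and 1.65 on X. On V it ran the other way, with 1.76 grouped and 1.79 lone. Few tags limit ratios in short regions. No paired analysis was possible because replicates 1 and 2 enter a single list, which also keeps either from being left out.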
